A study of Homo sapiens with 6 samples.

Results

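The SR and TRA2 splicing factors are nuclear proteins that bind short sequences in exons of precursor mRNA and help the spliceosome to choose splice sites. The set described here holds 10 genes, SRSF1 to SRSF7, SRSF11, TRA2A and TRA2B, found by symbol among the 60605 genes of the count table. Polyadenylated RNA was sequenced from HuCCT-1, an established human line of cholangiocarcinoma, the cancer of the bile ducts. Cells of the inhibitor group (JNJ) had 4 days in 6 nM JNJ-64619178, which blocks the arginine methyltransferase PRMT5, and cells of the control group had the same time in an equal volume of DMSO. Each group had 3 libraries, and both groups come from this single line in the same medium, so they model tumour cells in culture without the stroma of a tumour. Nothing in the labels says whether the replicates were separate cultures, so the p-values rest on a spread between libraries that may be technical only.

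Proteins of this family carry RNA recognition motifs and a tail rich in arginine and serine, the RS domain. Kinases of the SRPK and CLK families phosphorylate the serines, which moves the proteins into the nucleus and out of nuclear speckles to sites of splicing. Many of the genes limit their own output: a surplus of the protein favours an exon or intron that holds an early stop codon, and the resulting message is removed by nonsense-mediated decay. PRMT5 methylates arginine in Sm proteins of the spliceosome and has SR proteins among its known substrates, and the comparison asks how the messages of these factors stood after it was blocked.

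Total counts ranged from 28133746 to 30691914 in the DMSO libraries and from 23931991 to 28224911 in the inhibitor libraries. The summed level of the 7 biliary and simple epithelial markers ran from 5321 to 5593 CPM (reads of a gene relative to the library's total, scaled by TMM) with DMSO and from 4244 to 4525 CPM with the inhibitor, with 4 of the markers lower (KRT7, KRT8, KRT18 and KRT19) and 1 higher (SOX9) in the test below. Marker sums of hepatocytes, fibroblasts, leukocytes and endothelium stayed at or below 1.63 CPM in every library, and 1 marker of hepatocytes and 1 of leukocytes had 0 counts. The part of the epithelial shift in the splicing factor results was not tested.

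All 10 genes were well counted, with 1944 to 29597 counts per gene and library, and all 10 passed the filter on low counts. Of them 5 rose (SRSF2, SRSF4, SRSF7, SRSF11 and TRA2A), 2 fell (SRSF3 and SRSF5) and 3 did not pass the test (SRSF1, SRSF6 and TRA2B). Every change was small: the largest was 1.33-fold, and 0 of the 10 reached 1.5-fold, which 14.5% of all genes tested did. That share takes in weakly counted genes and was not matched for abundance. The test was edgeR's quasi-likelihood test over 17371 genes, with a gene called at a Benjamini-Hochberg adjusted p under 0.05. It called 37.1% of all genes, 20.0% higher and 17.1% lower, against 7 of the 10 factors. Abundant genes were called more often. Of the 2174 genes with an average level within the range of these 10, 56.2% were called, 33.0% higher and 23.2% lower, so the count of 7 stands closer to that share than to the share over all genes. With upper-quartile scaling the balance over all genes turned from 3478 higher and 2970 lower to 2800 higher and 4099 lower, and the factors kept 5 higher and 2 lower. The median log2 fold change of the 10 was 0.18, against 0.00145 for all genes. No median was taken for genes within the abundance range of the 10, which were also called higher more often than lower.

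Gene counts add up all isoforms, and in this family those include messages that make no protein. GENCODE release 29 annotates at least 1 transcript subject to nonsense-mediated decay for all 10 genes and at least 1 transcript with a retained intron for 8 of them. Over the 13063 protein-coding genes tested, 42.7% had a transcript of the first kind, 57.4% of the second kind and 32.9% both. The stretches below are shown because they are where such a message ends its reading frame, and because counts per gene do not separate it from the message that makes protein. Each is the start of an internal exon that no protein-coding transcript of the gene touches, in GENCODE's transcript sequence (GRCh38), read up to the early stop codon, which is in capitals. One transcript is given for each gene in which such an exon was found, that with the most exons. The search covered only transcripts annotated as subject to nonsense-mediated decay, with the stop codon whole within the exon. Early-stop exons annotated in other ways were not looked for, so the remaining genes may hold them.
SRSF3, exon 4 of 7, chr6:36599821-36599854, plus strand: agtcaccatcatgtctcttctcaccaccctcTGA
SRSF4, exon 4 of 8, chr1:29166009-29166064, minus strand: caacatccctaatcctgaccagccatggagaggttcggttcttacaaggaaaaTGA
SRSF6, exon 3 of 7, chr20:43459153-43459304, plus strand: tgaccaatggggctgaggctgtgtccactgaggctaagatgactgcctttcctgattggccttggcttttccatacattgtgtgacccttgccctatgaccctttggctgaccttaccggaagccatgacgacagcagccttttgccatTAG
SRSF7, exon 4 of 9, chr2:38749319-38749346, minus strand: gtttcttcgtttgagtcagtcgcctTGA
The frame closes after 34 bases of a 456-base exon in SRSF3, 56 of 175 in SRSF4, 152 of 268 in SRSF6 and 28 of 449 in SRSF7, counting the stop codon. Of these 4 genes SRSF4 and SRSF7 rose, SRSF3 fell and SRSF6 was not called, so genes with an exon found by this search stood in each class. The share of each gene's reads that came from these exons was not measured here.

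SRSF2, also known as SC35, binds exonic enhancers. Its level was 301, 285 and 269 CPM in the DMSO libraries and 370, 384 and 380 CPM in the inhibitor libraries. The groups did not overlap, as for 8 of the 10 factors (6 with all inhibitor libraries above, 2 with all below). Over all genes, with no match for abundance, 47.0% did not overlap (24.7% above, 22.2% below). The SRSF2 mean rose from 285 ± 16.4 to 378 ± 7.51 CPM (SD, n = 3 each). Its log2 fold change of 0.41 (SE 0.047, edgeR adjusted p = 1.97e-07) was the largest of the 10. SRSF2 (ENSG00000161547, chromosome 17, 76734115 to 76737374, minus strand, GENCODE release 29 on GRCh38) shares 1106 exonic bases, 36.7% of its exonic length, with MFSD11 on the other strand. MFSD11 rose as well (log2 fold change 0.25, edgeR adjusted p = 0.0242). Its row held 2354 counts over the 6 libraries and that of SRSF2 54273. The part of MFSD11 reads in the SRSF2 counts was not tested. No source used here gives the strand setting, and without it reads of both genes cannot be told apart where they overlap.

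SRSF4, SRSF5 and SRSF6 form a branch of the family with a pair of RNA recognition motifs and a long RS domain, and its 3 genes parted. In DMSO, SRSF4 libraries read 91.4, 95.8 and 88.4 CPM, and in the inhibitor 118, 122 and 119 CPM. All inhibitor libraries lay above all DMSO libraries, and the mean rose from 91.9 ± 3.72 to 119.7 ± 1.78 CPM (a log2 fold change of 0.38, SE 0.047, edgeR adjusted p = 5.08e-07). SRSF5, the most abundant of the 10 per unit of length, went the other way, from 984, 1008 and 951 CPM to 780.3, 789 and 729.6 CPM. Here each inhibitor library lay below each DMSO library. The mean fell from 981 ± 29.1 to 766 ± 31.95 CPM (a log2 fold change of -0.36, SE 0.046, edgeR adjusted p = 1.29e-06). For SRSF6 the DMSO libraries gave 358, 356 and 333 CPM, those of the inhibitor 352, 365 and 357 CPM. These ranges overlapped, and SRSF6 did not pass (log2 fold change 0.036, 95% interval -0.055 to 0.13, edgeR adjusted p = 0.562). SRSF4 lies on chromosome 1 (29147743 to 29181987), SRSF5 on chromosome 14 (69726900 to 69772005) and SRSF6 on chromosome 20 (43457928 to 43464247).

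SRSF3 and SRSF7 are small SR proteins that also serve as adaptors for the export of mRNA from the nucleus, and SRSF7 carries a zinc knuckle besides. Their messages moved in opposite directions. SRSF3 read 146, 142 and 143 CPM in the DMSO libraries, against 115, 119 and 112 CPM in those of the inhibitor, with no overlap. Its mean fell from 144 ± 1.83 to 115 ± 3.55 CPM (a log2 fold change of -0.32, SE 0.045, edgeR adjusted p = 4.19e-06). SRSF7 read 112, 113 and 113 CPM in DMSO, against 141, 141 and 135 CPM under treatment. The DMSO libraries of SRSF7 lay close together, and all inhibitor libraries were above them, with a mean that rose from 113 ± 0.71 to 139 ± 3.50 CPM (a log2 fold change of 0.30, SE 0.044, edgeR adjusted p = 7.02e-06). SRSF3 lies on chromosome 6 (36594353 to 36605600) and SRSF7 on chromosome 2 (38743599 to 38751494), and no other annotated gene overlaps either of them.

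SRSF1, the founding member of the family and a regulator of splicing, mRNA stability and translation, did not pass the test. Its DMSO libraries held 88.4, 84.8 and 83.4 CPM, its inhibitor libraries 86.3, 68.0 and 86.1 CPM. Inhibitor replicate 2 stood apart, and the other two inhibitor libraries lay within the DMSO range. The log2 fold change was -0.096 (95% interval -0.23 to 0.040, edgeR adjusted p = 0.272) and 0.012 without that library (edgeR adjusted p = 0.879). SRSF1 (ENSG00000136450, chromosome 17, 58003360 to 58007346, minus strand) shares 1890 exonic bases, 56.6% of its exonic length, with AC015813.2, a protein-coding model on the same strand. That model is a row of the table with 0 counts in all 6 libraries, while SRSF1 had 13672 counts over them. With that row at 0, no read was credited to both genes. No source used here says whether reads that touch both were dropped or given to SRSF1. If they were dropped, SRSF1 was undercounted, so its level is uncertain in both groups.

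SRSF11, an SR-related protein that contacts the splice site factor U2AF, and TRA2A both rose. DMSO libraries of SRSF11 held 436, 437 and 427 CPM, and inhibitor libraries 553, 534 and 545 CPM. The groups were far apart relative to their spread: the mean went from 433 ± 5.57 to 544 ± 9.70 CPM (a log2 fold change of 0.33, SE 0.043, edgeR adjusted p = 1.22e-06). TRA2A and TRA2B are the human counterparts of the fly sex determination factor transformer-2 and bind enhancers rich in GAA. For TRA2A the libraries gave 169, 172 and 172 CPM in DMSO against 205, 213 and 202 CPM under treatment, again with no overlap (a log2 fold change 0.27, SE 0.044, edgeR adjusted p = 2.09e-05). TRA2B libraries gave 191, 187 and 186 CPM in DMSO against 206, 197 and 197 CPM under treatment. All 3 inhibitor libraries of TRA2B were above the DMSO libraries, but the difference was small and did not pass (log2 fold change 0.088, 95% interval -0.0019 to 0.18, edgeR adjusted p = 0.119). Whether the changes of both TRA2 genes differ from each other was not tested. SRSF11 lies on chromosome 1 (70205682 to 70253052), TRA2A on chromosome 7 (23504780 to 23532041) and TRA2B on chromosome 3 (185915906 to 185938136).

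**Figure D1:**
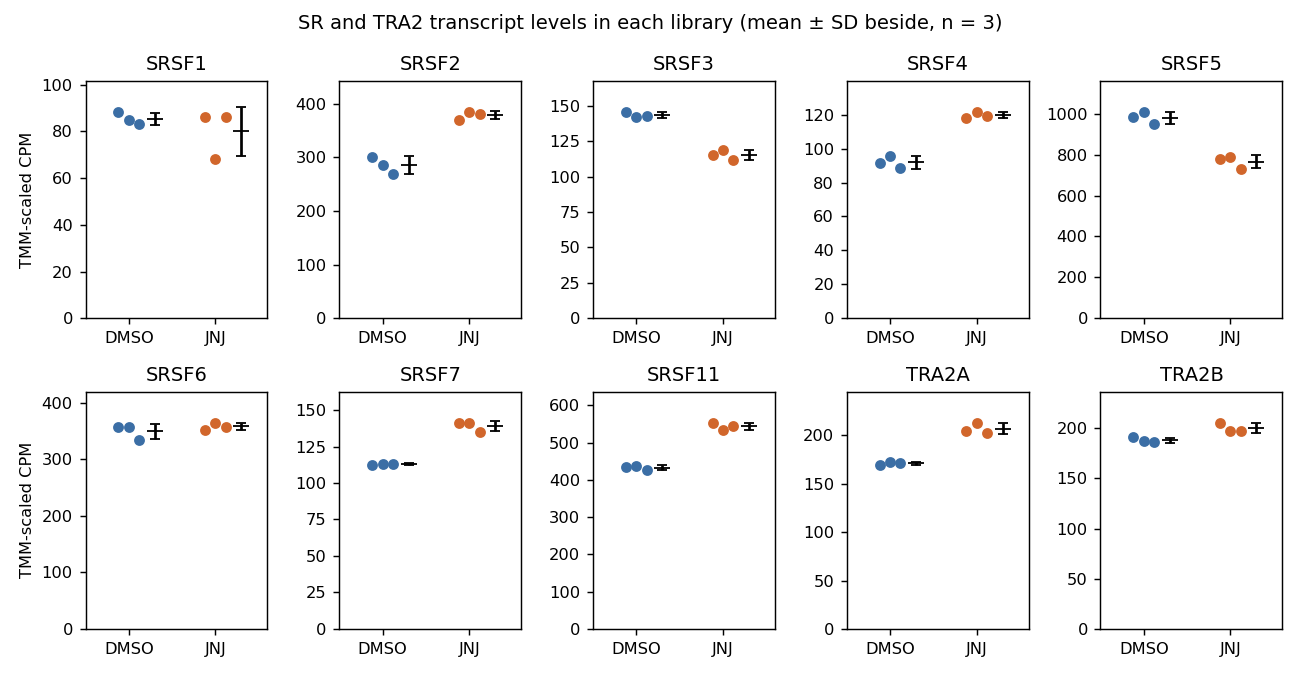
TMM-scaled CPM (vertical axes, each from 0) of the 10 genes in each of the 3 DMSO and 3 JNJ-64619178 libraries (points), with the mean ± SD beside them. The groups are apart in 8 panels and overlap in those of SRSF1 and SRSF6, and inhibitor replicate 2 of SRSF1 lies alone at 68.0 CPM.

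**Figure D2:**
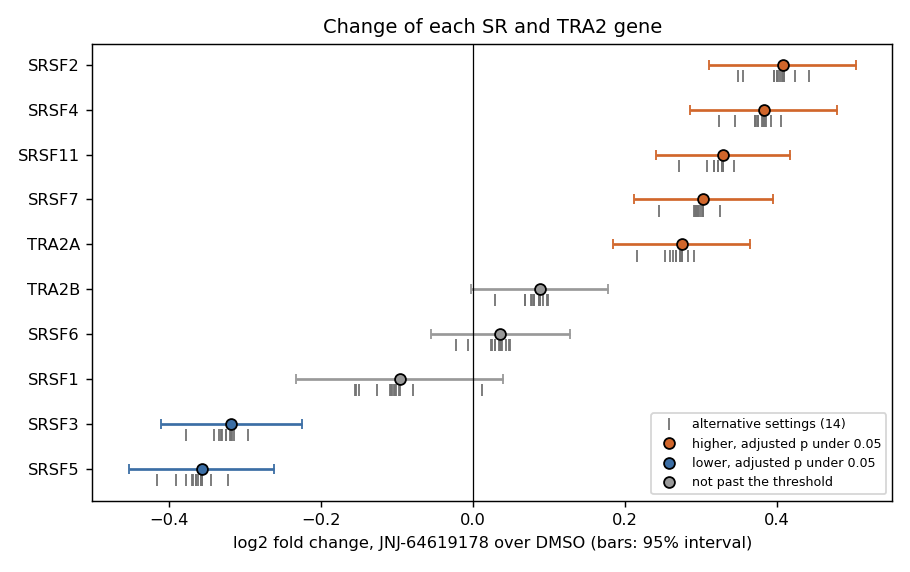
Log2 fold change of each gene, inhibitor over DMSO (points), with its 95% interval (bars) and the value under each of 14 alternative settings (ticks). All ticks of the 7 called genes lie on the side of their point, from -0.42 to -0.30 for the genes that fell and from 0.22 to 0.44 for the genes that rose.

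The 7 calls held in all 14 alternatives, which changed the scaling, the tool or the filter, added the replicate number as a block, left out each library in turn or added the counts of pseudogene copies. Among them the highest edgeR, DESeq2 or limma adjusted p was 1.53e-05 for SRSF2, 0.000161 for SRSF3, 2.55e-05 for SRSF4, 6.49e-05 for SRSF5, 0.00024 for SRSF7, 6.55e-05 for SRSF11 and 0.000613 for TRA2A. Within groups, DMSO replicate 3 was the lowest DMSO library for 7 of the 10 genes, and the median deviation of the 10 genes from the DMSO mean in that library was -0.029 on the log2 scale. Annotated pseudogenes that bear a member's symbol took few reads: 4 counts for SRSF3P1 and 20 for SRSF6P2 over all libraries, and 0 for the rest. Adding so few counts could hardly move a call. No source used here says how reads that fit several places were counted, so reads lost to such copies cannot be judged from these rows.

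Rises and falls met in the same family. Summed over the 10 genes, DMSO libraries held 2841 ± 66.4 CPM and inhibitor libraries 2907 ± 38.4 CPM, a ratio of 1.02. Library by library the sums were 2877, 2883 and 2765 CPM in DMSO against 2927, 2931 and 2863 CPM under treatment, and these ranges overlap. The total was not tested. To set genes beside each other, CPM was divided by exonic length in kilobases, from the exons of all transcripts in GENCODE release 29. Per kilobase the DMSO level was highest for SRSF5 (183 ± 5.43 CPM per kb), followed by SRSF2 (94.5 ± 5.42), SRSF6 (76.0 ± 2.96), SRSF11 (51.1 ± 0.66) and TRA2A (48.6 ± 0.51). SRSF7 (27.9 ± 0.18), SRSF1 (25.6 ± 0.77), SRSF3 (20.2 ± 0.26), TRA2B (16.0 ± 0.22) and SRSF4 (10.3 ± 0.42) came after. No neighbours in that order overlapped in their libraries. With the inhibitor the order was the same but for SRSF3 (16.2 ± 0.50), which stood below TRA2B (17.0 ± 0.42). Ranks below the top pair depend on which exons are counted as length. The overlaps of SRSF1 and SRSF2 with other genes leave their levels per kilobase, and so the shares below, uncertain too. With the exons of protein-coding transcripts alone, a setting added after seeing the data, SRSF5 (296 CPM per kb) and SRSF2 (97.4) stayed first and second with DMSO, SRSF11 (90.5) stood above SRSF6 (80.7), and TRA2B (61.7) and SRSF4 (38.5) stood above SRSF3 (32.7) and SRSF1 (26.7). On that scale TRA2A (92.4) also stood above SRSF6 (82.8) with the inhibitor, and the libraries of SRSF3 and SRSF1 overlapped there.

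Summed per kilobase, the libraries held 562, 561 and 537 CPM per kb in DMSO against 576, 580.0 and 567 CPM per kb under treatment, a ratio of 1.04, and on this scale the groups did not overlap. As a share of that sum, SRSF5 went from 33.1% ± 0.44 to 24.9% ± 0.75 and SRSF2 from 17.1% ± 0.62 to 21.8% ± 0.50 (SD, n = 3 each). The SRSF5 share lay between 32.7% and 33.6% in the DMSO libraries and between 24.03% and 25.4% in the inhibitor libraries. SRSF11 gained from 9.24% ± 0.12 to 11.2% ± 0.27 and TRA2A from 8.79% ± 0.28 to 10.2% ± 0.19. With the lengths of protein-coding transcripts alone, SRSF5 went from 35.0% to 26.5% and SRSF2 from 11.5% to 14.8%. Shares of a fixed total are not independent, so a fall of the most abundant gene alone would raise the shares of the others. The mean share of SRSF3 was lower with the inhibitor (3.64% to 2.82%), with no overlap between the groups. Mean shares of SRSF1 (4.63% to 4.18%) and SRSF6 (13.7% to 13.6%) were lower too, but their libraries overlapped. The level of SRSF2 itself rose, from 94.5 to 125 CPM per kb.

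**Figure D3:**
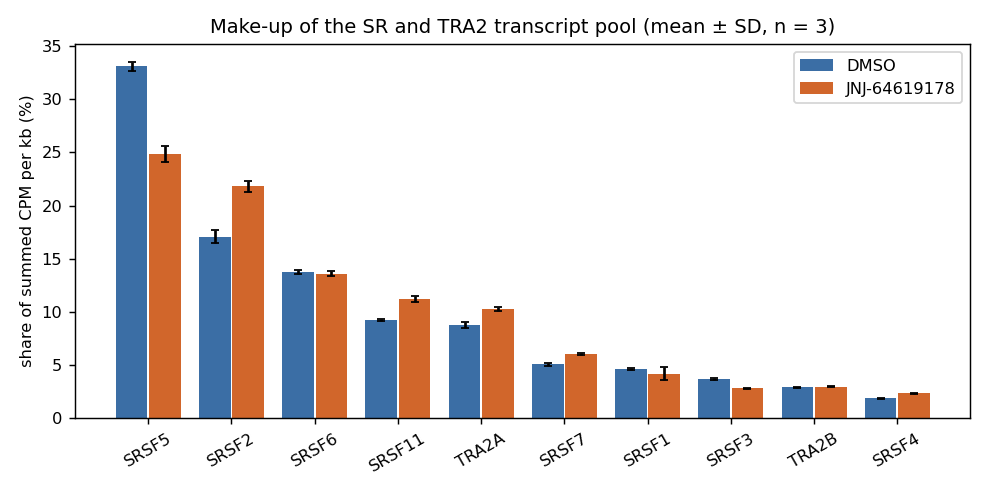
Share of each gene in the summed CPM per kb of the 10 genes (vertical axis, percent, from 0) in DMSO and JNJ-64619178 libraries, as mean with SD (bars, n = 3 each). The SRSF5 bars stand at 33.1% and 24.9%, those of SRSF2 at 17.1% and 21.8%, and those of SRSF6 at 13.7% and 13.6%.

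The promoters of SRSF3, SRSF4 and SRSF5 are shown because these genes moved apart and each has a single promoter entry in the RefSeq table (GRCh38.p14). Entries were found for 8 of the 10 genes, and SRSF2 and TRA2A had none. Each line gives the 250 bases before the transcription start, 5′ to 3′ on the gene's strand. Capitals mark matches on either strand to TATAAA (the TATA box), CCAAT (the CCAAT box), GGGCGG (the GC box), TGACG (the core of cyclic AMP response elements) or CACGTG (the E-box bound by MYC).
SRSF3, chr6:36594112-36594361, plus strand: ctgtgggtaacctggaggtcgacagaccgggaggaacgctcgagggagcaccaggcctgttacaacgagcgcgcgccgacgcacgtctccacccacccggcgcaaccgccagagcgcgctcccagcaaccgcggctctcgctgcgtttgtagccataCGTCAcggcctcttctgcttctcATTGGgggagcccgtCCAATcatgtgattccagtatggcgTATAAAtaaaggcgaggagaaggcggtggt
SRSF4, chr1:29181901-29182150, minus strand: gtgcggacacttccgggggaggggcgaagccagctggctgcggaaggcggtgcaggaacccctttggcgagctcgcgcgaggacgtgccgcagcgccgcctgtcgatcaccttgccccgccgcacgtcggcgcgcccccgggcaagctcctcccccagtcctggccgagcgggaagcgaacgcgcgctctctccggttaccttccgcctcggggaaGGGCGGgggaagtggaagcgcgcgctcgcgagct
SRSF5, chr14:69766892-69767141, plus strand: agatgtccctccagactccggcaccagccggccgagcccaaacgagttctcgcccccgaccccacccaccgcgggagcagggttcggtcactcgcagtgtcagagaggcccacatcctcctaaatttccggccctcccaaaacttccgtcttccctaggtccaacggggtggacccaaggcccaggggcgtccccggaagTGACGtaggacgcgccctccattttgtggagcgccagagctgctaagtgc
SRSF3 held a TATA box match, a pair of CCAAT matches and a TGACG match, SRSF5 a TGACG match alone, and SRSF4 a GC box match alone. Of the 10 entries of the 8 genes, TGACG was found in 7, GGGCGG in 5, TATAAA in 3, CCAAT in 1 and CACGTG in 0. Of all 35116 promoter entries, the same window held TGACG in 21.2%, GGGCGG in 42.6%, TATAAA in 10.7%, CCAAT in 32.01% and CACGTG in 6.34%. These matches describe the letters only and were not tied to the change of any gene.

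The other SR proteins of the classical family moved little. SRSF9 averaged 66.5 ± 0.38 CPM in DMSO against 61.1 ± 3.09 CPM under treatment (a log2 fold change of -0.12, edgeR adjusted p = 0.07), and passed with upper-quartile scaling (edgeR adjusted p = 0.00726) and without inhibitor replicate 2 (adjusted p = 0.0282). SRSF10 (log2 fold change 0.073) and SRSF8 (0.035) did not pass either, and SRSF12 had 1 count in all and was not tested. So edgeR called 0 of 3, against 37.1% of all genes tested, and 1 of 3 had an unadjusted edgeR p under 0.05. DESeq2 and limma-voom also called 0.

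Among 20 SR-related nuclear proteins, which lie outside the classical family, 6 rose, 7 fell and 7 did not pass, with a median log2 fold change of -0.097. Thus 65% were called, against 37.1% of all genes tested and 56.2% of genes within the abundance range of the SR and TRA2 genes. LUC7L, a partner of the U1 particle at 5′ splice sites, rose from 55.4 ± 1.06 to 102 ± 1.11 CPM (a log2 fold change of 0.89, edgeR adjusted p = 5.05e-13). CLASRP, which binds the kinase CLK4, rose by 0.61 on the log2 scale. ARGLU1, an arginine- and glutamate-rich splicing modulator, fell by 0.28, and ACIN1, a component of the complex that marks exon junctions, fell by 0.22. With upper-quartile scaling 5 were higher and 11 lower.

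The kinases that act on RS domains, with the nuclear importer of SR proteins, went both ways too. Of 10 tested, 3 rose and 2 fell, and the median log2 fold change was 0.030. That is 50% called, against 37.1% of all genes tested and 56.2% of genes within the abundance range of the SR and TRA2 genes. CLK1, a kinase that releases SR proteins from speckles, fell from 276 ± 10.2 to 187 ± 11.3 CPM (a log2 fold change of -0.56, edgeR adjusted p = 2.11e-09), more than any of the 10 splicing factors. CLK4 fell by 0.15 and lost its call without DMSO replicate 1 (edgeR adjusted p = 0.0743), DMSO replicate 2 (0.0742) or inhibitor replicate 3 (0.0734). PRPF4B, a kinase of the assembling spliceosome, rose by 0.36 and DYRK1A by 0.30. SRPK1, the cytoplasmic SR kinase, rose by 0.25 and is named after its value was seen, since it completes the 5 calls. TNPO3, the importer, also named after its value was seen, stood at a log2 fold change of 0.0051 (edgeR adjusted p = 0.954).

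The hnRNP proteins, many of which oppose SR proteins at splice sites, had 14 of 20 genes called, 7 higher and 7 lower. The shares called were 37.1% of all genes tested and 56.2% of genes within the abundance range of the SR and TRA2 genes. The median log2 fold change of the hnRNP genes was -0.090. HNRNPH1 rose from 797 ± 26.9 to 1263 ± 12.02 CPM (a log2 fold change of 0.66, edgeR adjusted p = 2.79e-11), and its relative HNRNPH3 rose by 0.63. HNRNPR fell by 0.56 and HNRNPA1, a well studied antagonist of SRSF1, fell by 0.30. With upper-quartile scaling 4 were higher and 10 lower, and without inhibitor replicate 3 the count of lower genes was 4. Of 10 factors of nonsense-mediated decay, 1 rose, 1 fell and 8 did not pass, so 20% were called against 37.1% of all genes. The helicase UPF1 rose from 89.2 ± 4.54 to 104 ± 2.96 CPM (a log2 fold change of 0.22, edgeR adjusted p = 0.000832).

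**Figure D4:**
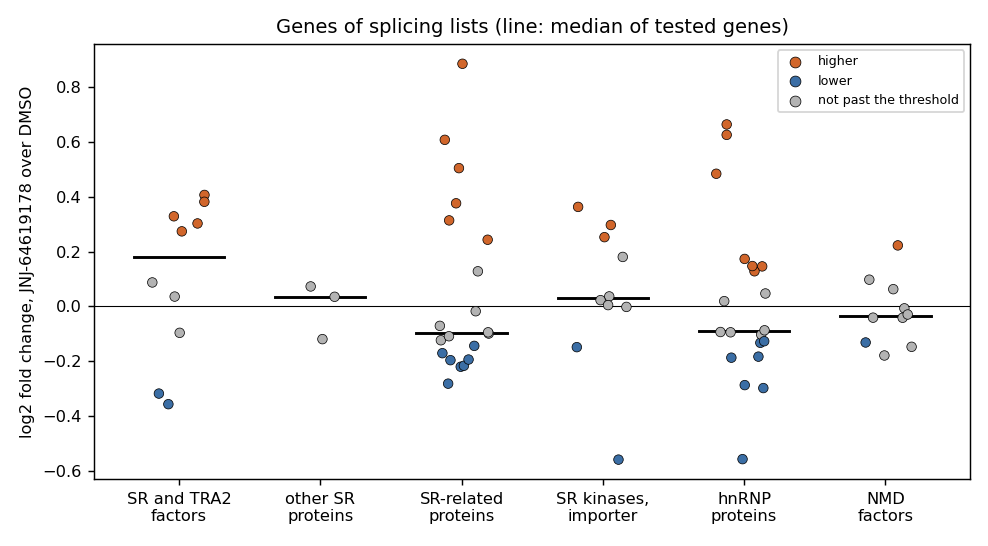
Log2 fold change, inhibitor over DMSO (vertical axis), of every tested gene in the 6 lists, coloured by its call at an edgeR adjusted p under 0.05, with the median of each list as a line. The SR and TRA2 factors range from -0.36 to 0.41, within the range of -0.56 to 0.66 of the hnRNP genes.

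To see which other genes followed the members, log2 CPM over the 6 libraries was correlated with that of the called member of smallest p in each direction, among 5602 tested genes whose log2 CPM averaged 5 or more. SRSF2 was most like RHBDF2 (Pearson r = 0.998), OGA (0.997) and EML3 (0.997). SRSF5 was most like DIDO1 (0.997), CLK1 (0.996) and RBM6 (0.995). RHBDF2, OGA and EML3 rose (log2 fold change 0.45, 0.27 and 0.30), and DIDO1 and RBM6 fell by 0.23 and 0.78. The 6 points fall into the treatment groups, so such values largely follow the split between DMSO and inhibitor and carry no test.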

How the data were processed

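Raw read counts per gene were deposited by the authors in a single table with human Ensembl identifiers. The submitters' processing notes list STAR 2.7.9a, featureCounts 1.6.0, FastQC 0.11.8, limma and edgeR without saying what each did. They name the mouse build GRCm39, at odds with the identifiers, and no source used here gives the strand setting or the annotation. A second row of 44 identifiers, with 0 counts, was dropped. Symbols came from a gene name table (60463 genes) or GENCODE release 29.

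Genes passing filterByExpr (minimum count 10, total 15) were scaled by TMM and tested on group with edgeR 4.0.16 (glmQLFit, glmQLFTest) over all genes. The SE is the log2 fold change divided by the square root of F, and intervals use the test's 23.4 degrees of freedom. DESeq2 1.42.0 and limma 3.58.1 were alternatives, run in R 4.3.3, and Python 3.11.15 was used besides. On simulated counts for this comparison (17105 genes), 47% of 1.25-fold and 82% of 2-fold changes were recovered, and 7 unchanged genes were called. The changed genes, 100 at each fold, were drawn at random from all genes past the filter. These shares therefore do not describe genes counted as well as the 10 members, nor data in which 37.1% of genes are called. The members and lists were chosen with earlier results of these data known. All members were named, and of each other list the 2 called genes of smallest p in each direction. One gene that this rule names is not reported here.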

Additional observations from a re-analysis of the deposited data

How the results depend on the processing

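The counts of SR and TRA2 genes called (7, with 5 higher and 2 lower) were the same in all 14 alternatives. Of the uncalled genes SRSF1, SRSF6 and SRSF8 changed sign in some alternatives, and TRA2B, SRSF9 and SRSF10 in none. With upper-quartile scaling the log2 fold change was -0.0225 for SRSF6 and -0.0231 for SRSF8. Leaving out 1 library at a time, it ran from -0.154 to 0.0123 for SRSF1 (highest without inhibitor replicate 2), from -0.00693 to 0.0486 for SRSF6 (lowest without DMSO replicate 3) and from -0.0428 to 0.0686 for SRSF8 (lowest without DMSO replicate 1). The cause was not tested. With upper-quartile scaling the calls were 1 of the other SR proteins (1 lower), 11 lower SR-related genes, 4 higher hnRNP genes and 4 decay factors (3 lower). Lower decay factors numbered 2 with RLE scaling and 2 when CPM had to exceed 1 in 3 or more libraries. Leaving out 1 library at a time gave 0 to 1 calls among other SR proteins (0 to 1 lower), 1 to 2 lower kinase genes, 4 to 7 lower hnRNP genes and 1 to 2 decay factors (1 to 2 higher, 0 to 1 lower). With the replicate number as a block, decay factors called were 1 in all and 0 lower, all genes called were 6132, and no count of another list moved by over 1.5 times. Over all genes tested, the deviations of same-numbered libraries had correlations of -0.018, -0.014 and 0.0019. Other pairings were not compared, and counting noise of weakly counted genes enters these values. They therefore do not settle whether the libraries were paired.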
